A study of Mus musculus with 6 samples.

Results

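The *Ly6* family and *Gpihbp1* were followed as 9 genes of the deposited expression table, *Ly6a*, *Ly6c1*, *Ly6c2*, *Ly6d*, *Ly6e*, *Ly6g*, *Ly6h*, *Ly6k* and *Gpihbp1*, out of 34745 genes listed. The set was chosen by gene symbol with measured differences between the groups already known, so the differences of its members between the groups are given as a description and without a test. RNA-seq libraries had been made from cardiac fibroblasts of the left ventricle of male mice, 8 to 10 weeks old, taken on Day 7 after a myocardial infarction (MI) in which the left anterior descending artery was tied off. There were 3 libraries from KDM5B knockout mice (labelled KO) and 3 from littermate wild-type mice (labelled WT), and all 6 came from infarcted hearts. The knockout was made with CRISPR/Cas9 by deleting the bases of *Kdm5b* that hold the JmjC demethylase domain, and is not restricted to fibroblasts. The number of mice behind each library is not given in the sources used here, so the spread between libraries may be partly technical. Sham-operated hearts were not analysed here.

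Proteins of the Ly6/uPAR family share a small, cysteine-rich domain held together by disulfide bonds, and most are tethered to the outer face of the cell membrane by a glycosylphosphatidylinositol (GPI) anchor. In the mouse many of their genes lie side by side on chromosome 15, where repeated duplication has left close copies. Several are used as surface markers, among them Ly6a (also known as Sca-1) for haematopoietic stem and progenitor cells and some mesenchymal and endothelial cells, Ly6c for monocytes and endothelial cells, and Ly6g for neutrophils. Gpihbp1 is a family member of capillary endothelial cells that binds lipoprotein lipase and carries it to the capillary lumen.

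Between 12025403 and 15329427 counts per library fell on genes, and 14084 genes passed the expression filter for testing. Values are given as raw counts, or as counts per 1e6 (CPM) after TMM normalisation, and changes as KO label over WT label. A count of 3, taken as the limit that a count of 0 allows, corresponds to 0.193 to 0.245 CPM. The targeted gene *Kdm5b* was at 98.0, 107 and 105 CPM under the KO label and at 108, 128 and 123 CPM under the WT label (log2 fold change -0.22, adjusted p = 0.0574 from edgeR). Each KO value lay below each WT value, but the gene did not pass the threshold, although it did with the upper quartile, with the replicate block and without WT replicate 1. The groups are therefore named by label. Counts are per gene, so reads inside and outside the deleted bases were not told apart. By Q-PCR and immunoblot the paper found next to no KDM5B mRNA or protein in fibroblasts of the knockout mice. Why the counts here differ from that was not tested. All 12 fibroblast marker genes had counts in every library, and their summed level was 29094 to 33844 CPM under the KO label and 40663 to 43262 CPM under the WT label.

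All 9 members lie on chromosome 15 within 837426 bases (mm10, GRCm38). In order along the plus strand they are *Ly6d* (74762056 to 74763620, minus strand), *Ly6k* (74796874 to 74799986, minus), *Ly6e* (74955051 to 74959905, plus), *Ly6a* (74994877 to 74998031, minus), *Ly6c1* (75044018 to 75048830, minus), *Ly6c2* (75108158 to 75111970, minus), *Ly6g* (75155240 to 75159126, plus), *Ly6h* (75551268 to 75567255, minus) and *Gpihbp1* (75596628 to 75599481, plus). These are the spans of the table's locus column, and they equal the gene spans of GENCODE M21. Because several members are near copies of one another, their sequences were compared before their values.

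*Ly6c1* and *Ly6c2* are the closest pair. Their coding sequences, each of 393 bases in the principal transcript, differ at 9 bases (97.7% identity), and the longest run without a difference is 188 bases, longer than a read of 150 bases. Counted from 1 at the A of the start codon and with the base of *Ly6c1* first, the differences are C8G, T10A, A16G, G31T, C36G, A65G, G254A, T327C and G376A. The first 150 coding bases are shown because they hold 6 of the 9 differences, which are in capitals. The remaining 3 lie farther along the coding sequence. In *Ly6c1* the bases shown lie in exon 2 (75048442 to 75048511) and exon 3 (75047390 to 75047469) of 4 exons, and in *Ly6c2* in exon 2 (75111598 to 75111667) and exon 3 (75110548 to 75110627), all on the minus strand of chromosome 15 in GRCm38.
Ly6c1: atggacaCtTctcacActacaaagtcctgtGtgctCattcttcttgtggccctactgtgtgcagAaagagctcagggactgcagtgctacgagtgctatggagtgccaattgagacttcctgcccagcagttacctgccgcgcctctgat
Ly6c2: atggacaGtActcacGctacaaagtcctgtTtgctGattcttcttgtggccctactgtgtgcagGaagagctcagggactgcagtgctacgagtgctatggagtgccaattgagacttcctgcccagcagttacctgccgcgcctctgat

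The other pairs were less alike. *Ly6a* shared 81.8% of aligned coding bases with *Ly6c1* and 83.1% with *Ly6g*, and *Ly6c1* shared 79.6% with *Ly6g*. *Ly6e* and *Ly6c1* shared 49.1%, and *Gpihbp1* and *Ly6c1* 34.2%. How many reads such likeness can misplace was read from the annotated transcripts. Of all stretches of 50 bases in the transcripts of *Ly6c1*, 32.8% also occurred in a transcript of another gene (*Ly6c2*, *Ly6a* or *Ly6i*), as did 19.0% of those of *Ly6a*, 14.5% of those of *Ly6c2* and 0.448% of those of *Ly6g*. At 150 bases the shares were 2.29% for *Ly6c1*, 1.43% for *Ly6c2* and 0 for *Ly6a*. No stretch of 50 bases of *Ly6e*, *Ly6d* or *Gpihbp1* was found elsewhere. *Ly6k* shared 32.7% with *Gm17189*, which overlaps it on the other strand. The libraries were strand-specific per the labels, but whether counting used the strand is not given in the sources used here, so reads of that pair may not have been told apart.

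The promoters of 3 members are shown over the 250 bases before the annotated start, because *Ly6c1* had 1148 counts or more in each KO library and the others 15 or fewer. The table held entries for 3 of the 9 members, with 2 starts for each, and the entry farther upstream is printed. Capitals mark matches, on either strand, to the TATA word (TATAAA), the CCAAT word and an ETS core (AGGAAG). The windows are chr15:75048838-75049087 (minus strand) for *Ly6c1*, chr15:75111972-75112221 (minus) for *Ly6c2* and chr15:75155011-75155260 (plus) for *Ly6g*, build GRCm38.p6.
Ly6c1: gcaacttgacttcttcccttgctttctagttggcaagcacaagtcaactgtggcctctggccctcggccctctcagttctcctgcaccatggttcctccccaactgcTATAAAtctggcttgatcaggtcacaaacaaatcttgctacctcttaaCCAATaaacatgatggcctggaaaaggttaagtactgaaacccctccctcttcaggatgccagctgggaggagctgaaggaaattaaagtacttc
Ly6c2: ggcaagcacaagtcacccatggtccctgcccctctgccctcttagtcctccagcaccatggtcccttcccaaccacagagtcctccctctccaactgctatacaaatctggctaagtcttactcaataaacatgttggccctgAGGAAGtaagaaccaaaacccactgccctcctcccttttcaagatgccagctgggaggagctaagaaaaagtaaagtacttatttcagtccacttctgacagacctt
Ly6g: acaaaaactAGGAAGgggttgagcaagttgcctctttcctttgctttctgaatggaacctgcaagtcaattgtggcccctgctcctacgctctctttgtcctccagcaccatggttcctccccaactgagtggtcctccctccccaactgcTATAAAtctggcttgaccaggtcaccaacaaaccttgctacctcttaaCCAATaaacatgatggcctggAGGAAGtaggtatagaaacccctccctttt

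In the *Ly6c1* window the TATAAA match began 143 bases and the CCAAT match 95 bases before the start, and in the *Ly6g* window they began 99 and 51 bases before it. The *Ly6g* window also held AGGAAG at 241 and 30 bases before the start. The *Ly6c2* window held AGGAAG at 107 bases before the start, and neither TATAAA nor CCAAT. The words found depend on the start taken, since the window of the other *Ly6c1* start (75048664 to 75048913) held AGGAAG at 126, 38 and 34 bases before it and neither TATAAA nor CCAAT. *Ly6f*, a close copy outside the 9 members, also had an entry (75268171 to 75268420, plus strand), which held all 3 words and shared 215 of 253 aligned bases with the window of the other *Ly6g* start. Of the 32851 promoter windows of this length, 12.4% held TATAAA, 33.9% CCAAT and 29.5% AGGAAG, so these words are common. None of the 3 windows held the words searched for the interferon-stimulated response element (in 2.98% of all windows), the GAS element (TTCNNNGAA, 7.02%), the GC box (GGGCGG, 32.7%), the AP-1 site (TGANTCA, 6.75%), the longer ETS word (2.88%) or the cyclic AMP response element (1.55%). The *Ly6c1* window shared 57.7% of aligned bases with that of *Ly6c2* and 58.5% with that of *Ly6g*. The words are matches of letters, and binding was not measured.

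The members fell into 2 classes by level. *Ly6c1*, *Ly6a* and *Ly6e* had 940 counts or more in every library labelled KO, whereas *Ly6g*, *Ly6c2*, *Ly6d*, *Gpihbp1*, *Ly6h* and *Ly6k* reached at most 15 counts in any library. The expression filter kept the first 3, of which *Ly6c1* and *Ly6a* passed it through their level under the KO label, and the remaining 6 were not fitted. In 6 of the 9 members each value under the KO label lay above each value under the WT label, and in 0 of 9 the reverse held. Over all genes tested the same separation was found upward in 24.7% and downward in 22.4%. Since the members were picked from this contrast, nothing is read from their share.

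*Ly6c1*, one of the genes for the Ly6C antigen, had 1711, 1148 and 1585 counts under the KO label and 3, 0 and 1 counts under the WT label. Its level was 140, 86.0 and 102 CPM against 0.210, 0 and 0.0710 CPM, with means of 109 ± 27.7 (SD, n = 3) and 0.0936 ± 0.107 CPM. Each WT library was at or below the limit of 3 counts, and the groups were far from overlapping. The ratio of summed counts, scaled for depth, was 1164 (95% exact counting interval 454 to 4273), an interval that covers counting error only. The fitted log2 fold change was 10.07 (standard error 0.39), which moved to 11.29 without WT replicate 1 and to 9.51 without WT replicate 2. It rests on 4 counts under the WT label.

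*Ly6a*, which encodes the stem cell antigen Sca-1, had 1051, 940 and 1351 counts under the KO label against 21, 12 and 8 under the WT label. This corresponds to 86.0, 70.4 and 87.0 CPM, a mean of 81.1 ± 9.28 (SD, n = 3), against 1.47, 0.818 and 0.568 CPM, a mean of 0.952 ± 0.465. Here all 3 WT libraries were above the limit of 3 counts, so the gene was detected at a low level under both labels. The ratio of summed counts, scaled for depth, was 85.4 (95% exact counting interval 62.8 to 119), and the fitted log2 fold change 6.40 (standard error 0.21). By mean CPM *Ly6a* ranked 2725 of the 34745 genes listed under the KO label and 13357 under the WT label.

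*Ly6e*, an interferon-inducible member expressed in many tissues, was the only member well counted under both labels, with at least 1273 counts in each library. It had 2861, 2354 and 3033 counts under the KO label and 1392, 1273 and 1349 under the WT label. In CPM these were 234, 176 and 195 against 97.3, 86.8 and 95.8, with means of 202 ± 29.4 and 93.3 ± 5.70 (SD, n = 3). The lowest KO library lay above the highest WT library. Its ratio was 2.15 (95% exact counting interval 2.07 to 2.24) and its fitted log2 fold change 1.11 (standard error 0.10).

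These 3 genes varied together among the libraries labelled KO in one respect. KO replicate 2 was the lowest of the 3 for each of them, and KO replicate 1 was the highest for *Ly6c1* and *Ly6e*, but not for *Ly6a*. The coefficient of variation over the KO libraries was 25.3% for *Ly6c1*, 11.4% for *Ly6a* and 14.5% for *Ly6e*. The summed level of 16 endothelial marker genes had the same extremes, with 2510 CPM in KO replicate 1, 1852 CPM in KO replicate 2 and 2132 CPM in KO replicate 3. The part of endothelial RNA in the spread of these members was not tested.

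**Figure D1:**
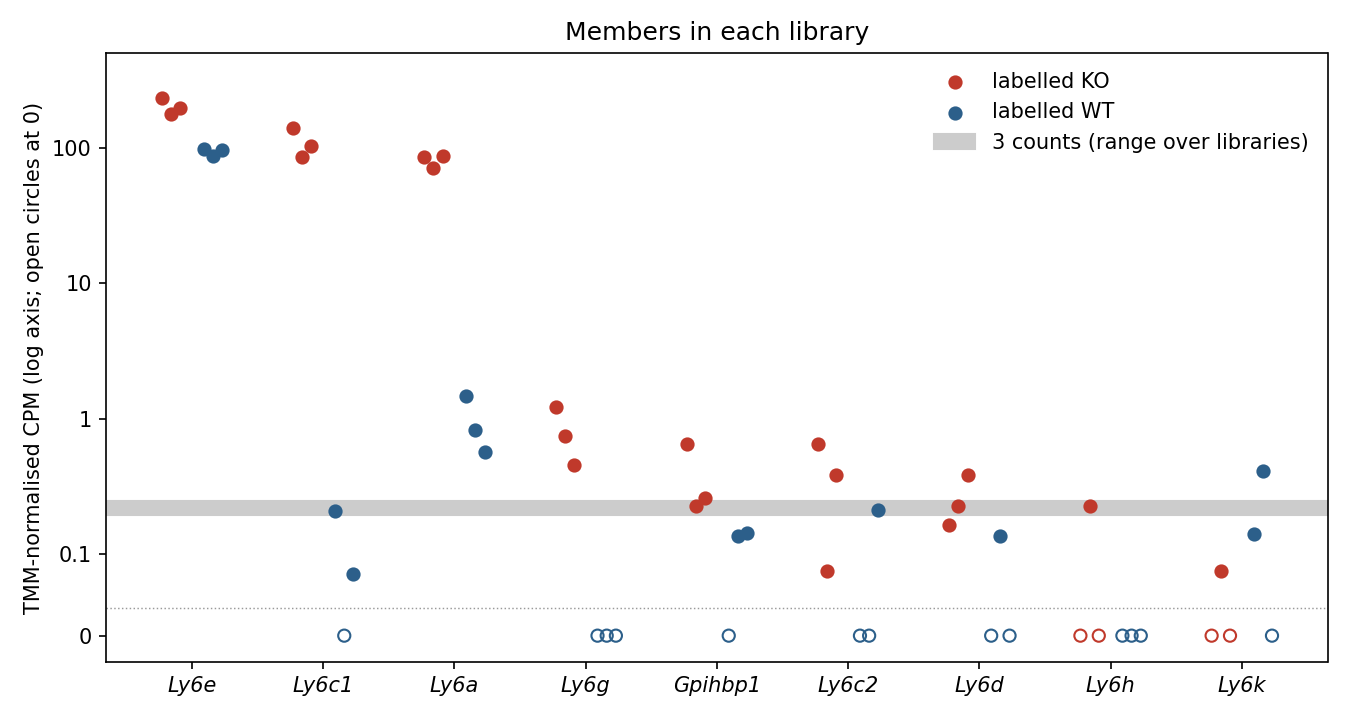
TMM-normalised CPM of each member (log axis) in the 3 libraries labelled KO and the 3 labelled WT, 1 point per library, with open circles for a count of 0 and a grey band for the level of 3 counts. *Ly6e*, *Ly6c1* and *Ly6a* lie at 70.4 to 234 CPM under the KO label, whereas the other 6 members stay below 1.23 CPM in every library.

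The antigen of neutrophils, *Ly6g*, had 15, 10 and 7 counts under the KO label and 0 in every WT library, that is 1.23, 0.749 and 0.451 CPM against 0. It was at least 3.87-fold higher, computed against 3 counts in each WT library. *Ly6c2*, the copy of *Ly6c1* associated with monocytes, had 8, 1 and 6 counts against 0, 0 and 3, so that the groups overlapped (ratio 5.24, 95% exact counting interval 1.48 to 28.2). Set beside its near copy, *Ly6c2* had 0.0871% to 0.468% of the counts of *Ly6c1* in the same KO libraries, and *Ly6g* had 0.442% to 0.877%. How many of these few counts are reads of *Ly6c1* placed on a copy was not tested.

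*Ly6d*, known from lymphoid progenitors and keratinocytes, had 2, 3 and 6 counts under the KO label and 0, 2 and 0 under the WT label (ratio 5.76, interval 1.26 to 53.5). *Gpihbp1* had 8, 3 and 4 counts against 0, 2 and 2 (ratio 3.93, interval 1.25 to 16.3). In CPM the lowest KO value lay above the highest WT value for both genes, but in counts these were equal for *Ly6d* (2 and 2) and 1 apart for *Gpihbp1* (3 and 2). *Ly6h*, a member of the nervous system that acts on nicotinic receptors, had 3 counts in KO replicate 2 and 0 in the other 5 libraries. *Ly6k*, which in the testis is found with Tex101, was the only member with more counts under the WT label, 2, 6 and 0 against 0, 1 and 0 (ratio 0.131, interval 0.00295 to 0.977), and its groups overlapped. At this depth a level for *Ly6h* and *Ly6k* could not be told from 0 in most libraries.

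Levels of different members can be compared only per length, and the length matters here. The length behind the deposited FPKM was worked out from the counts, and for 8 of the 9 members it equals the sum of all distinct annotated exons, in which exons that overlap between transcripts are counted repeatedly. For *Ly6e* that length is 12485 bases, 3.30 times the 3784 bases its exons cover once merged. It is 2.87 times for *Ly6a* (3452 against 1205 bases) and 1.96 times for *Ly6c1* (3293 against 1677 bases). Over 10979 genes with more than 50 counts in every library the median of this ratio was 1.25. Within a gene the length cancels, so the comparisons between labels are untouched.

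In deposited FPKM the order under the KO label was *Ly6c1* (33.6 ± 8.68), *Ly6a* (23.8 ± 2.83) and *Ly6e* (16.4 ± 2.46, SD, n = 3 each). Per kb of merged exon it was *Ly6a* (67.3 ± 7.70 CPM per kb), *Ly6c1* (65.2 ± 16.5) and *Ly6e* (53.4 ± 7.76), and neighbours in this order differed by less than their spread. The remaining members followed far below, with *Ly6g* at 0.859, *Ly6d* at 0.347, *Gpihbp1* at 0.148, *Ly6c2* at 0.136, *Ly6k* at 0.0301 and *Ly6h* at 0.0177 CPM per kb, and their SDs, from 0.0307 to 0.416, were as large as most of the steps between them. Under the WT label *Ly6e* stood alone at 24.7 ± 1.51 CPM per kb, followed by *Ly6a* at 0.790 ± 0.386 and *Ly6k* at 0.221 ± 0.251, and each of the others was at 0.0611 or below.

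The make-up of the members' summed level differed accordingly. *Ly6e* made up 94.2% to 97.5% of it, per kb of merged exon, in the WT libraries and 27.8% to 29.6% in the KO libraries. *Ly6c1* made up 32.5% to 38.2% and *Ly6a* 32.6% to 38.8% in the KO libraries, so that the 3 genes took shares of like size there.

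**Figure D2:**
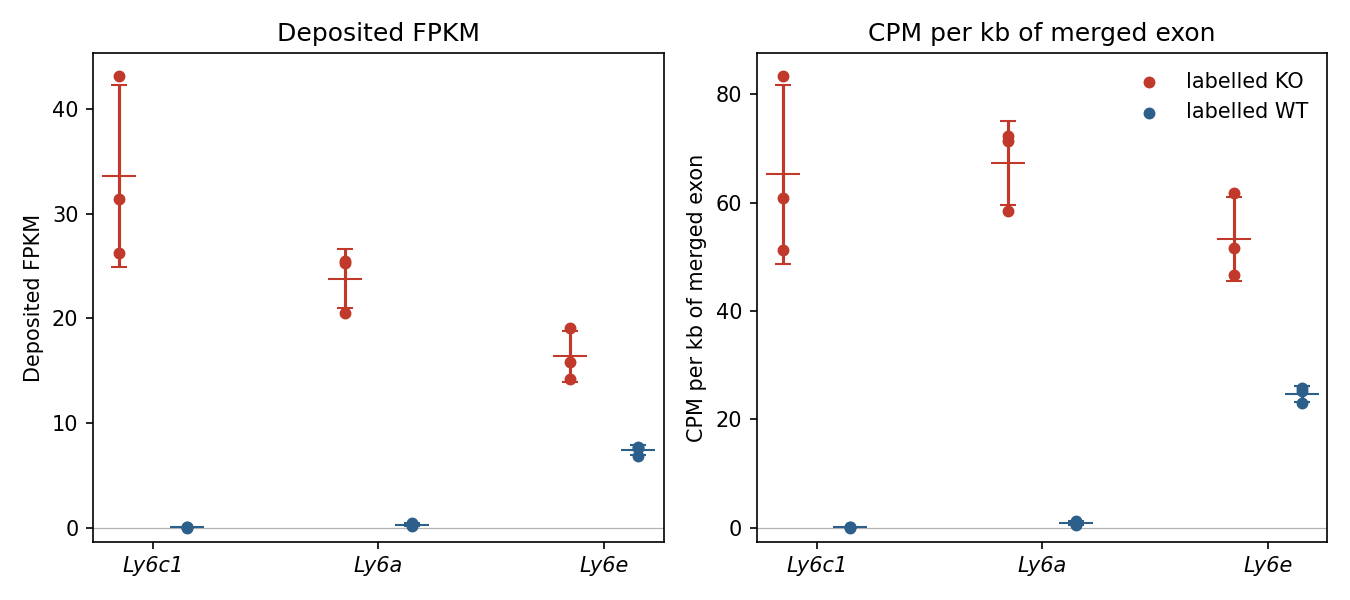
*Ly6c1*, *Ly6a* and *Ly6e* in deposited FPKM (left axis, sum of distinct exons as length) and in CPM per kb of merged exon (right panel), with 1 point per library, a dash for the mean and bars for the SD (n = 3). Under the KO label *Ly6e* is at 16.4 FPKM, below the 33.6 FPKM of *Ly6c1*, but at 53.4 CPM per kb it overlaps the other 2 genes.

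Other genes of the Ly6/uPAR family were compared to ask whether the remaining family moved with the members. Of 54 symbols listed 32 were in the table, 21 had any count and 5 could be tested. Among these 4 were called higher and 0 lower by edgeR at an adjusted p under 0.05, where 17.7% of all genes tested were called higher and 12.5% lower. One of the 4, *Ly6f*, had no count under the WT label and passed the expression filter only through the KO libraries, so it could only be called higher. At an unadjusted p under 0.05 the counts were 5 higher and 0 lower, with DESeq2 they were 3 and 0, and with limma on log2(FPKM + 1) 5 and 0. The median log2 fold change of the 5 genes was 0.74, also with *Ly6f* at its lower bound, beside -0.02 over all genes tested.

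*Lypd1*, a membrane-tethered modulator of nicotinic acetylcholine receptors, had 299, 198 and 242 counts under the KO label and 11, 27 and 26 under the WT label. The groups did not overlap, and the log2 fold change was 3.61 with a standard error of 0.32 (edgeR, adjusted p = 1.2e-04). *Plaur*, the receptor of urokinase plasminogen activator, was 181, 146 and 152 CPM against 91.5, 98.1 and 97.4 CPM, again without overlap (log2 fold change 0.74, standard error 0.08, adjusted p = 4.6e-04 from edgeR). *Ly6f*, a close copy of *Ly6a* with 84.6% of aligned coding bases in common, had 17, 18 and 13 counts against 0 in every WT library and was at least 5.70-fold higher, a value given without its p because the filter kept the gene only for its KO counts. No stretch of 50 bases of *Ly6f* was found in a transcript of another gene.

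*Lynx1*, which acts on nicotinic receptors in the brain, was higher by a small amount (log2 fold change 0.23, adjusted p = 0.0445 from edgeR), and this call was lost with DESeq2 and on leaving out any single library. *Cd59a*, an inhibitor of the complement membrane attack complex, had a log2 fold change of 0.39 and was not called (adjusted p = 0.0726 from edgeR). *Tex101*, the partner of Ly6k in the testis, had 1 count in KO replicate 2 and 0 in the other libraries, and *Slurp1* had 0 in every library. *Ly6i*, the copy nearest to *Ly6a* in sequence (86.3%), had 5 counts in KO replicate 1, 1 count in WT replicate 1 and 0 in the other 4 libraries.

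The genes around the members were read to see whether the difference extended over the chromosome. Within 500 kb beyond the outermost members lay 64 other genes, 40 of them with any count and 24 tested, of which 7 (29.2%, *Ly6f* and *Arc* included, which the filter kept only for their KO counts) were called higher and 2 (8.33%) lower, beside 17.7% and 12.5% of all genes tested (median log2 fold change 0.15, with *Ly6f* at its bound as well). Of the 64 genes 9 are also in the family list, and 5 of the 7 higher calls were outside it. *Arc*, a gene of the early neuronal activity response, had 87, 115 and 154 counts under the KO label against 11, 5 and 15 (fitted log2 fold change 3.56, standard error 0.31, given without its p). *Them6*, *Zfp41*, *Gsdmd* and *Pycrl* rose by 0.97, 0.77, 0.52 and 0.35 on the log2 scale. *Gsdmd* encodes gasdermin D, the pore protein of pyroptosis, and *Pycrl* a proline synthesis enzyme. *Jrk* was lower by -0.69 and *Fam83h* by -0.38 (adjusted p = 0.0106 and 0.0161 from edgeR), and DESeq2 called only 1 of these 2 lower. The other 15 tested neighbours were not called.

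**Figure D3:**
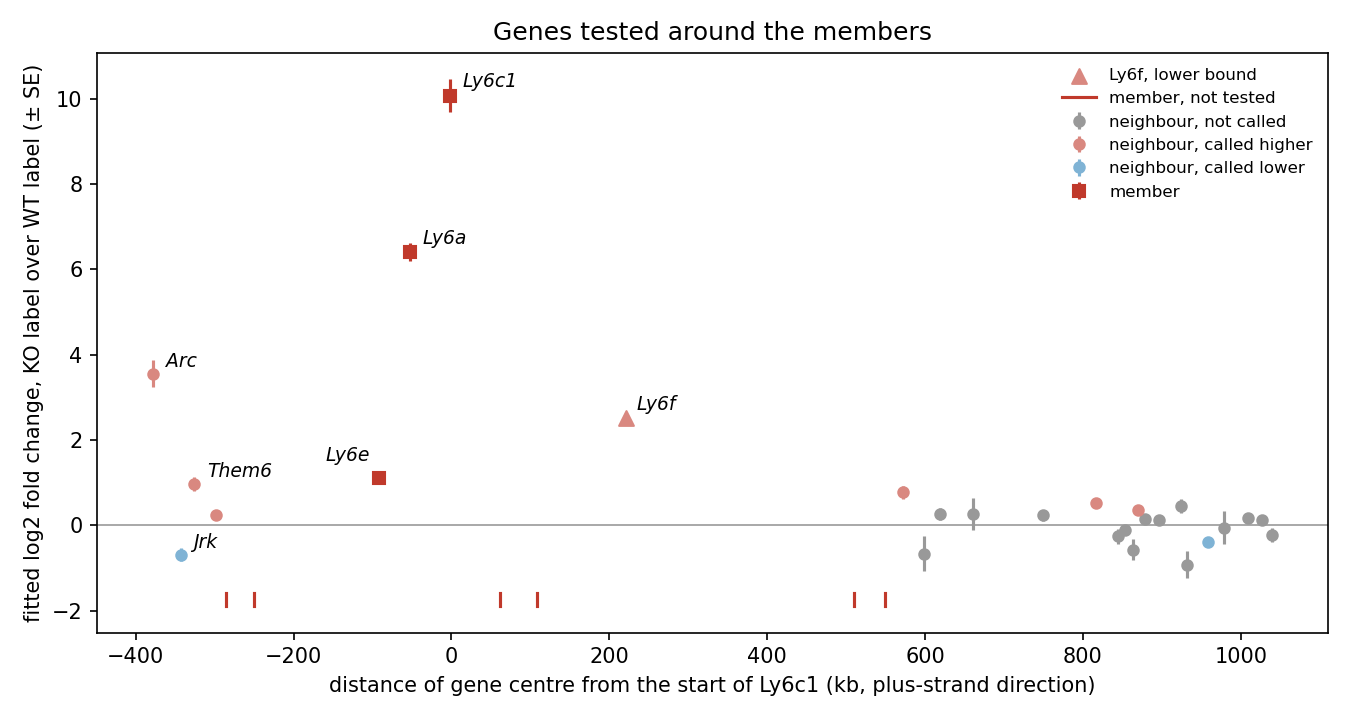
Fitted log2 fold change (KO label over WT label, bars are standard errors) of each tested gene against the distance of its centre from the start of *Ly6c1* in kb, with members as squares, *Ly6f* as a triangle at its lower bound and ticks for the members not tested. *Ly6c1* at 10.07 and *Ly6a* at 6.40 stand above *Arc* at 3.56, the highest of the neighbours other than *Ly6f*, for which only the bound is drawn.

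Gpihbp1 works with lipoprotein lipase, and the genes that make, fold, hold or inhibit this enzyme were read as a list. Of the 10 genes tested, 6 were called lower and 0 higher by edgeR, beside 12.5% and 17.7% of all genes tested, and their median change was -0.37 on the log2 scale. At an unadjusted p under 0.05 the counts were also 6 and 0, and with DESeq2 5 and 0. *Lpl*, the lipase itself, was 141, 165 and 170 CPM under the KO label and 217, 208 and 230 CPM under the WT label, without overlap (log2 fold change -0.46, standard error 0.08, adjusted p = 0.00275 from edgeR). Among the called genes the largest falls were in *Pcsk5* (-0.48), a proprotein convertase, and *Lipg* (-0.46), endothelial lipase. The call of *Lipg* (adjusted p = 0.0499 from edgeR) was lost in 12 of 15 alternatives, DESeq2 among them. *Furin*, a convertase that cleaves the lipase, fell by 0.25 on the log2 scale (adjusted p = 0.00946). For *Angptl4*, an inhibitor of the lipase, the value was 0.08, and for *Lmf1*, which is needed for its folding, -0.02, and neither was called (adjusted p = 0.685 and 0.870 from edgeR). The median of the fibroblast markers was -0.42. With libraries scaled on those markers 0 genes of the list were called lower and 3 higher. Under that scaling 39 of all 14084 genes tested were called lower and 8824 higher, so nothing is read from the loss of the lower calls.

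A GPI anchor is attached to most family members, and 30 genes of its assembly could be tested. Of these 6 were called higher and 1 lower, and the median change was 0.12 on the log2 scale. *Pigf* and *Piga*, of which the latter belongs to the enzyme of the first step of the pathway, rose by 0.82 and 0.80, and *Pigx* fell by 0.39 on the log2 scale, a call that DESeq2 did not make. *Ly6e* is known as an interferon-inducible gene, and of 26 genes of the interferon response 5 were called higher and 2 lower, with a median of -0.07. Leaving out single libraries gave 3 (without KO replicate 1, KO replicate 3, WT replicate 2 or WT replicate 3) to 6 higher and 1 to 4 (without WT replicate 2) lower, and DESeq2 called 4 lower. *Oas1a* and *Oas2*, which encode sensors of double-stranded RNA, rose by 1.29 and 1.26, whereas *Cxcl10*, a chemokine, fell by 0.36 and *Irgm1*, a GTPase, by 0.22 on the log2 scale, the latter a call lost in 8 of 15 alternatives. The shares called higher, 6 of 30 and 5 of 26, are near the 17.7% of all genes tested. With libraries scaled on the fibroblast markers 22 and 12 genes of these lists were called higher and 0 lower in either. Under that scaling 8824 of all 14084 genes tested were called higher and 39 lower, so nothing is read from these counts.

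**Figure D4:**
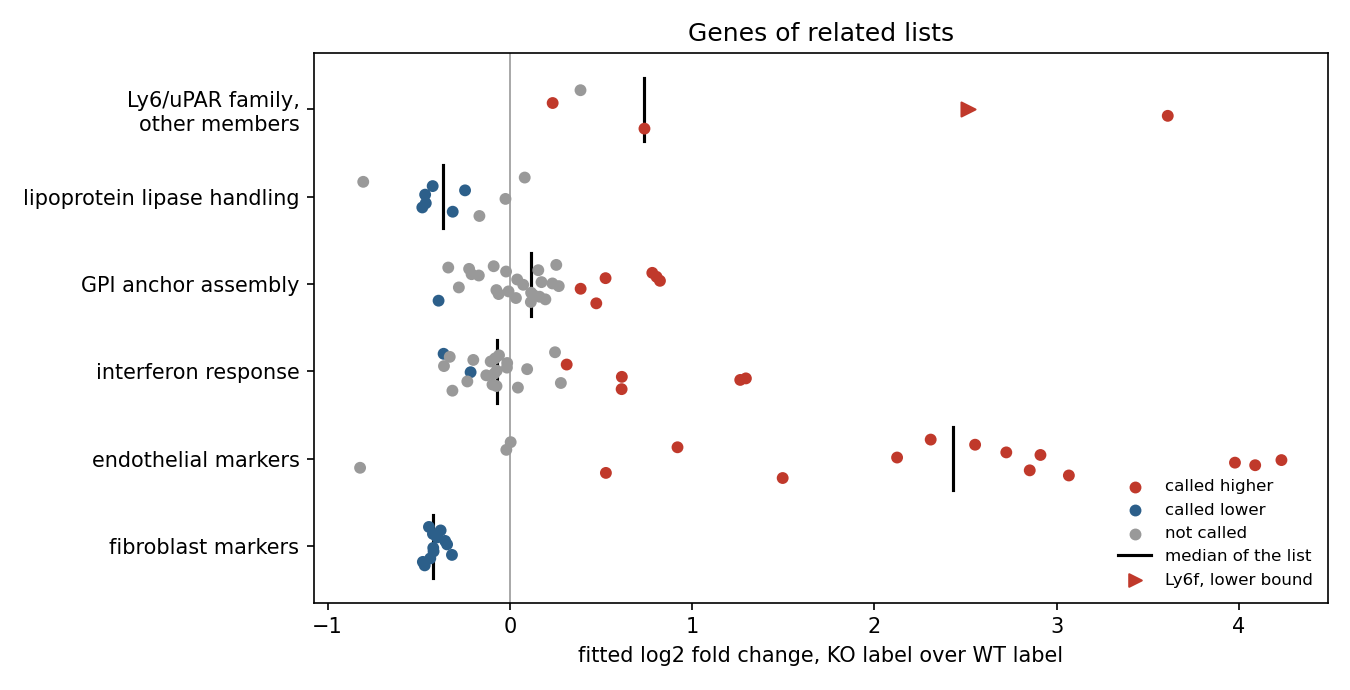
Fitted log2 fold change (KO label over WT label) of each tested gene in 6 lists, coloured by the call at an adjusted p under 0.05, with a black line for the list's median and *Ly6f* at its lower bound. The endothelial markers have a median of 2.43 and the fibroblast markers one of -0.42, and the lipoprotein lipase list lies near the latter at -0.37.

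Because members serve as surface markers of several cell types, the markers of these cells were read beside them. In bulk libraries a change in the number of cells of a type and a change in RNA per cell cannot be told apart. Of all genes tested 17.7% were called higher and 12.5% lower by edgeR. Of 16 endothelial markers 13 were called higher and 0 lower by edgeR (1 lower at an unadjusted p under 0.05, 0 with DESeq2), and their sum was 1852 to 2510 CPM under the KO label against 566 to 570 CPM. None of the 16 was at 0 in any library. *Kdr*, a receptor of vascular endothelial growth factor, rose by 4.23 and *Robo4* by 4.09 on the log2 scale. The ratio of *Ly6c1* to *Pecam1* in CPM was 0.195, 0.167 and 0.162 under the KO label and 0.00495, 0 and 0.00199 under the WT label, so *Ly6c1* differed by more than this endothelial marker. *Gpihbp1*, although a gene of capillary endothelium, had 0.0408% to 0.0910% of the counts of *Pecam1* in the KO libraries and 0, 0.338% and 0.398% in the WT libraries, where it rests on at most 2 counts.

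Of 9 blood progenitor markers tested, 5 were called higher and 2 lower, beside 17.7% and 12.5% of all genes tested. The sum over all 12 listed was 893 to 1258 CPM against 183 to 196 CPM. *Cd34* and *Procr*, which endothelial cells also express, rose by 4.81 and 4.23 on the log2 scale, and *Hlf* and *Runx1* fell by 0.92 and 0.24. DESeq2 called 1 of the list lower and limma 0, and the call of *Hlf* was lost in 12 and that of *Runx1* in 9 of 15 alternatives. The defining gene *Slamf1* had 1 and 2 counts in KO replicates 1 and 2 and 0 in the other 4 libraries. Of 3 monocyte markers tested 2 were called lower (*Plac8*, -0.41, and *Spn*, -0.30) and 0 higher by edgeR, and 3 lower and 0 higher both with DESeq2 and at an unadjusted p under 0.05. The call of *Plac8* was lost in 9 of 15 alternatives and that of *Spn* in 4, and limma called 1 lower. *Ccr2* and *Chil3*, which define inflammatory monocytes, had at most 4 counts in any library. Neutrophil markers summed to 32.4 to 38.4 CPM and 32.0 to 35.5 CPM. *S100a8* and *S100a9*, which passed the filter through their KO counts, had log2 fold changes of 2.99 (3.86 without WT replicate 1) and 1.95, and *Mmp8* fell by 0.55, a call lost without any of 4 single libraries, while *Elane* was at 0 in every library and *Mpo* had at most 1 count. Lymphocyte markers summed to 0.824 to 1.23 CPM and 0.909 to 1.42 CPM, with 7 of 12, among them *Cd3e*, at 0 everywhere. The part of any of these cells in the counts of *Ly6a*, *Ly6c2*, *Ly6d* and *Ly6g* was not tested beyond these values.

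The other cell types were read in the same way, beside the 17.7% of all genes tested that were called higher and the 12.5% called lower. All 12 fibroblast markers fell, with *Tcf21* at -0.48 and *Thy1* at -0.47. Of 9 macrophage markers tested 6 fell, led by *C1qb* (-0.60) and *C1qc* (-0.49), and *Cd68* rose (1.38). Of 9 cardiomyocyte markers 7 fell and 0 rose (*Myh6*, -0.45, and *Actn2*, -0.45), of 6 epithelial markers 4 fell and 0 rose (*Cdh1*, -0.65, a call lost with DESeq2, and *Krt18*, -0.54), and neither list had a rise at an unadjusted p under 0.05 or with DESeq2. Of 6 mural markers 2 rose (*Mcam*, 1.38, and *Abcc9*, 0.84) and 3 fell (*Cspg4*, -0.43, and *Des*, -0.42 among them). With libraries scaled on the fibroblast markers, the falls named here for fibroblast, macrophage, cardiomyocyte, epithelial and mural markers were no longer called, and *Des* turned sign. For the fibroblast markers this follows from the scaling, which they set. Among all genes tested only 39 were called lower under it, so nothing is read from the loss for any cell type. No germ cell marker could be tested, and their sum was below 1 CPM in every library.

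The genes whose profile over the 6 libraries was most like that of a member were found by the root mean square distance of log2(CPM + 0.5), each centred on its own mean, among 13490 genes with a mean of at least 1 CPM. For *Ly6a* these were *Lyve1* (0.22), *Dll1* (0.24), *Gimap4* (0.29), *Gm42835* (0.39) and *Psg22* (0.42). *Lyve1* encodes a hyaluronan receptor of lymphatic endothelium and some macrophages, *Dll1* a ligand of Notch and *Gimap4* a GTPase of lymphocytes. *Lyve1* had a mean of 97.8 CPM under the KO label against 1.44 CPM, *Dll1* 54.2 against 0.419 and *Gimap4* 55.8 against 0.930. For *Ly6c1* the nearest were *Dll1* (0.82), *Ly6a* itself (0.86), *Psg22* (0.87), *Lyve1* (0.93) and *Gm42835* (1.09), each farther away than the corresponding gene was from *Ly6a*. The nearest to *Gpihbp1* were *RP24-363O21.3*, *Rpia*, *Creb5*, *Tacc3* and *Serpinb8* (0.08 to 0.10), where the profile rests on at most 8 counts per library and the constant of 0.5 flattens it. The likeness is mostly that of a large step between the labels, which the members were chosen for.

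**Figure D5:**
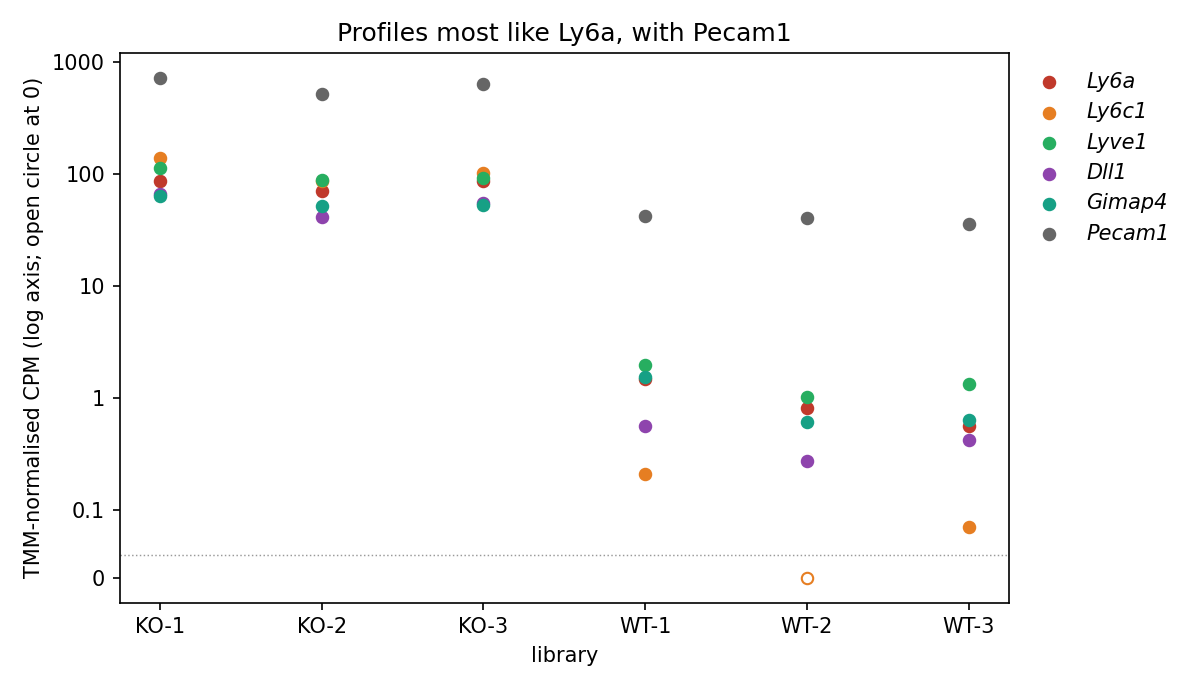
TMM-normalised CPM (log axis) of *Ly6a*, *Ly6c1*, 3 of the genes with the profile most like *Ly6a* and the endothelial marker *Pecam1*, 1 point per library, with an open circle for a count of 0. *Lyve1*, *Dll1* and *Gimap4* follow *Ly6a* from 54.2 to 97.8 CPM under the KO label to about 1 CPM or less, with *Lyve1* at 1.44, while *Pecam1* keeps a mean of 39.4 CPM under the WT label.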

How the data were processed

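Cardiac fibroblasts of 3 libraries labelled KO and 3 labelled WT were sequenced as strand-specific 150-base paired-end libraries. Mapping by the authors was to mm10 with HISAT2, left at its default parameters. The submitters' processing notes also name GRCm38.p4 and edgeR. The authors deposited raw counts per gene and FPKM values, for which the counter, its strand setting and the annotation release are not given in the sources used here.

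The count test was that of edgeR 4.0.16 under R 4.3.3 (filterByExpr, TMM, quasi-likelihood test, two-sided), with all 6 libraries, no covariate and Benjamini-Hochberg adjustment over 14084 genes, at an adjusted p under 0.05. The test was first tested on simulated data. Members carry no test. Ratios of summed counts have exact 95% intervals, which cover counting error only, as does the limit of 3 counts. Alternatives were DESeq2 1.42.0, library size, the upper quartile or fibroblast markers in place of TMM, no filter or a mean CPM of at least 1, limma 3.58.1 on log2(FPKM + 1) and log2(FPKM + 0.1), a replicate block, omission of single libraries, and a required fold change above 2. Libraries of one label differed by more than sampling noise in every pair (an unadjusted p under 0.05 of a binomial test in 22.5% to 32.1% of genes). None is therefore a copy of another that differs by counting noise alone. Whether libraries share a mouse or a pool cannot be told from this.

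Gene models and coding sequences came from GENCODE M21, promoters from RefSeq (GRCm38.p6), and sequences were aligned with Biopython 1.88. The length behind each FPKM value was derived from the count, the FPKM and the library total. Levels per kb of merged exon were added after that length had been seen. Plots were made in Python 3.11.15 with matplotlib 3.10.9.

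The members and the 16 lists (Ly6/uPAR family, genes within 500 kb, GPI anchor assembly, lipoprotein lipase handling, interferon response and 11 marker lists) were chosen with earlier results of these data known. Named are every member, called genes of the family and the neighbourhood (up to 10 each by size of change), *Tex101*, *Lpl*, *Angptl4*, *Lmf1*, *Furin*, *Cd59a*, *Plaur*, *Lynx1*, *Slurp1* and *Kdm5b*, the 2 largest changes each way among called genes of each other list, and the 5 most similar profiles of *Ly6a*, *Ly6c1* and *Gpihbp1*. Single genes named beyond this rule (*Ly6i*, *Pecam1* and marker genes at or near 0) were chosen after their values were seen.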

Additional observations from a re-analysis of the deposited data

How the results depend on the processing

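Scaling the libraries on 12 fibroblast markers moved the median log2 fold change of all genes to 0.41, from -0.02. Under it 8824 genes were called higher and 39 lower, and 14 and 0 neighbours. Values that turned sign with this scaling were *Furin* (0.18), *Lmf1* (0.40), *Pigx* (0.029), *Cxcl10* (0.061), *Irgm1* (0.21), *Plac8* (0.013), *Spn* (0.12), *Runx1* (0.18), *Des* (0.0009), *Fam83h* (0.039) and *Kdm5b* (0.21), which follows from the shift of all genes. The fitted values of *Ly6a*, *Ly6c1* and *Ly6e* were positive in every alternative run, with *Ly6a* between 4.28 and 6.85 and *Ly6c1* between 5.05 and 11.29, where the lowest values came from limma on log2(FPKM + 1), whose constant lowers the change of genes near 0. *Ly6e* ran from 0.998 without KO replicate 1 to 1.54 with fibroblast marker scaling. With a fold change above 2 in addition, 844 genes were higher and 38 lower, 2 family genes were higher, and 2 neighbours were higher and 0 lower. DESeq2 called 1 neighbour lower. Leaving out each library in turn gave 1144 (without KO replicate 3) to 1636 genes lower and 1 (without WT replicate 2) to 2 neighbours lower. With the replicate block 2318 genes were higher and 1592 lower, with 3 family genes and 6 neighbours higher and 0 and 2 lower. The deviations of libraries with the same number correlated at 0.00897 to 0.0315, so the numbers do not pair the libraries, although each KO library correlated best with the WT library of its own number. Among the genes named, the block lost the calls of *Lynx1*, *Lipg*, *Plac8* and *Hlf* and gained that of *Kdm5b*, and it gave 5 interferon response and 2 GPI anchor genes lower. The single lower call of the GPI anchor list became 4 with the upper quartile, 0 with DESeq2 and 0 to 2 on leaving out single libraries. Other named calls lost in 4 to 9 of 15 alternatives were those of *Irgm1*, *Pigx*, *Spn*, *Mmp8*, *Runx1*, *Cdh1* and *Fam83h*.

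Depth limits *Ly6c2*, *Ly6d*, *Ly6h*, *Ly6k* and *Gpihbp1*, which were at or below 3 counts in at least 4 of the 6 libraries, and the level of *Ly6c1* under the WT label. With 3 libraries per label, an exact permutation test of a single gene cannot go below p = 0.1. Placement of reads between near copies, or between genes on opposite strands, was not tested.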

Other observations

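Of the 21 family genes outside the members with any count, 5 were tested. Among those too low to be tested, 3 showed groups without overlap and were picked out after their values were seen. Over all genes tested 24.7% lay above and 22.4% below without overlap. The share over genes too low to be tested was not worked out, so nothing is read from this count. *Psca*, the prostate stem cell antigen gene at the edge of the same cluster on chromosome 15, had 3, 4 and 8 counts under the KO label and 0 in every WT library, at least 1.69-fold higher against 3 counts per WT library. *Ly6g6d*, which lies in the major histocompatibility region of chromosome 17, had 4, 2 and 11 counts against 0 (at least 1.89-fold). *Ly6g5b*, from the same region, went the other way, with 3, 3 and 6 counts against 9, 7 and 9, or 0.286 ± 0.0880 against 0.582 ± 0.0908 CPM (SD, n = 3). Each rests on a few counts and carries no test.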
